A study of Mus musculus with 4 samples.

Results

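Amino acid transporters of the plasma membrane were described in tibialis anterior, the fast muscle at the front of the shin, from C57BL/6 mice at postnatal day 21. The set held 10 genes named by symbol (Slc7a5, Slc7a8, Slc3a2, Slc43a1, Slc7a1, Slc7a2, Slc38a2, Slc38a3, Slc38a4 and Slc1a5), out of 32868 gene names in the deposited tables, and each was found in a single row. The Nf1-KO group had the genotype Nf1flox/flox/Myf5+, with both Nf1 alleles floxed, and the Het group Nf1flox/+/Myf5+, with 1 floxed allele. The controls therefore also carry a floxed allele and the same Myf5+ label, which in crosses of this kind stands for Cre recombinase made from the Myf5 gene and active in muscle precursors. Nf1 encodes neurofibromin, a protein that switches off Ras, and the series addresses muscle growth and metabolism after birth. Each group had 2 libraries of total RNA, and nothing in the labels says whether they came from separate animals, so p-values measure the spread between these libraries, which may be technical.

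Amino acids cross the muscle membrane through carriers that differ in what they carry and in what drives them. System L carriers move leucine and other large neutral amino acids, and LAT1 and LAT2 (Slc7a5 and Slc7a8) do so only when joined to the heavy chain CD98 (Slc3a2). System A carriers (Slc38a2 and Slc38a4) bring in small neutral amino acids with sodium, the system N carrier (Slc38a3) moves glutamine, asparagine and histidine, ASCT2 (Slc1a5) exchanges small neutral amino acids including glutamine, and the CAT carriers (Slc7a1 and Slc7a2) move arginine, lysine and ornithine. In muscle these carriers supply protein synthesis, pass leucine to the growth kinase complex mTORC1, and release glutamine to the blood.

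Most of the carriers in this set were higher in Nf1-KO muscle, while its system A genes were lower. Of the 10 genes, 9 had at least 0.5 RPKM (reads scaled by the length of the gene and the depth of the library) in at least 2 libraries and were tested. In the limma fit over 10690 genes, 6 of the 9 rose (Slc7a2, Slc38a3, Slc43a1, Slc7a8, Slc1a5 and Slc3a2), 2 fell (Slc38a4 and Slc38a2) and Slc7a1 was not called, at an adjusted p under 0.05. The same fit called 50.3% of all genes tested, with 24.9% higher and 25.4% lower, so a call by itself is common in this comparison. The median log2 fold change of the 9 genes was 0.28, against 0.0 over all genes tested. In all 10 genes the Het and Nf1-KO libraries did not overlap, with Nf1-KO above Het in 7 and below it in 3. By scaled values the same holds for 76.3% of the genes tested, with 38.2% above and 38.1% below. With values left as deposited and not scaled between libraries, the share of called genes that were higher was 66.6% in place of 49.5%, and the 9 genes had the same calls.

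**Figure D1:**
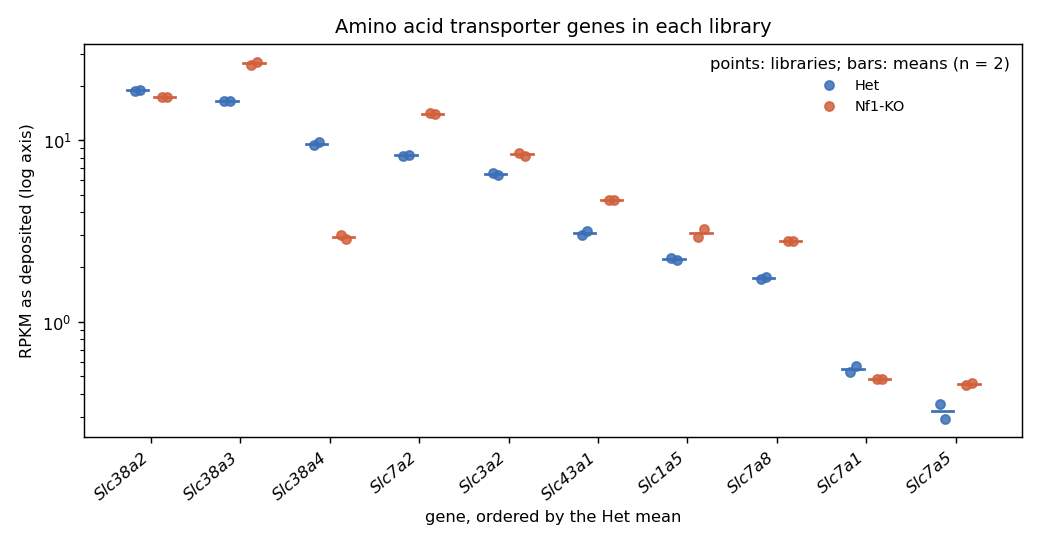
RPKM as deposited (log axis) of the 10 transporter genes in the 2 Het and 2 Nf1-KO libraries, ordered by the Het mean; points are libraries and short bars are means. Slc38a4 drops from 9.59 to 2.92 RPKM and so moves from the third place in Het to the seventh in Nf1-KO, while Slc38a3 moves above Slc38a2.

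Nf1 itself stood at 1.09 and 1.01 RPKM in Het against 0.89 and 0.85 RPKM in Nf1-KO. Its log2 fold change was -0.18 (SE 0.057, limma adjusted p 0.041), a call that was lost when any 1 library was left out (adjusted p 0.057 to 0.18), with values not scaled (0.094), with no filter (0.081) or with the replicate block (0.056). Nf1 was also lower in the authors' deposited DESeq2 comparison, with a log2 fold change of -0.38 (SE 0.11, adjusted p 0.0026, mean count 698). When 0.1 rather than 1 was added to each value before taking logs, limma gave -0.33 (adjusted p 0.045). These values include reads from exons that are not floxed and from cells that never expressed Myf5. The part of such reads in the Nf1 values was not tested. Estimated depth ran from 36600000 to 58100000 reads per library, and over 4826 genes of at least 5 RPKM the replicates had a median coefficient of variation of 2.03% (Het) and 1.91% (Nf1-KO). Muscle fibre markers were abundant in every library, and their sum was 62741 and 62879 RPKM in Het and 51185 and 50733 RPKM in Nf1-KO. The list holds genes of fast fibres (Myh4, Myh1, Tnnt3, Tnni2, Atp2a1 and Pvalb) beside Ckm and Acta1. In bulk tissue, fewer cells of a type, less RNA per cell and a change of fibre type cannot be told apart.

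The system A genes gave the largest difference of the set. Slc38a4 encodes SNAT4, a sodium-coupled carrier of small neutral amino acids that also takes cationic ones, and in the mouse it is an imprinted gene expressed from the paternal allele. Slc38a2 encodes SNAT2, the system A carrier that cells increase when amino acids run short. The annotation places both on the minus strand of chromosome 15 (GRCm38), Slc38a2 from 96687392 to 96699730 and Slc38a4 from 96994820 to 97055956, as separate protein-coding genes with no exon shared with another gene. Their promoters are shown because the pair are neighbours that fell by very different amounts. These are RefSeq sequences of GRCm38.p6, from 250 bases before to 50 bases after a start site, on the minus strand, and no base is in capitals because none of the motifs searched was found in them:
Slc38a2, chr15:96699679-96699978: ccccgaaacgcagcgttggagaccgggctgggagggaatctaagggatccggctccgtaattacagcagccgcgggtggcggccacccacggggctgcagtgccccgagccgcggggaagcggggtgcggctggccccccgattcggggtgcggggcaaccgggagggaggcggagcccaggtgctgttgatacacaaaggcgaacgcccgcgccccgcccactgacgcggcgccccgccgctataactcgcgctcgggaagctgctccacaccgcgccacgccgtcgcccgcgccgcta
Slc38a4, the start farthest upstream, chr15:97055907-97056206: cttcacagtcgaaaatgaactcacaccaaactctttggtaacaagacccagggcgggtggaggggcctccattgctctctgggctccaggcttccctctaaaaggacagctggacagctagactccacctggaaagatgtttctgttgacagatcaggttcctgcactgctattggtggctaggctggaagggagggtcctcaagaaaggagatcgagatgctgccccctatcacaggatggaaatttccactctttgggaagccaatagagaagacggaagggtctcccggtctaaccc

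The Slc38a2 window was 73.0% G and C with 41 CG dinucleotides. The Slc38a4 window held 53.0% G and C with 5 CG dinucleotides, and the windows of its other 2 annotated starts 46.7% and 45.3%, also with 5 each. Over all 32851 promoter windows the medians were 52.7% and 7, so the Slc38a2 window is the CG-rich one of the pair.

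Slc38a4 held 9.37 and 9.8 RPKM in Het and 3.0 and 2.84 RPKM in Nf1-KO. Both Nf1-KO libraries thus lay far below both Het libraries, with a mean of 2.92 ± 0.11 against 9.59 ± 0.30 RPKM (SD, n = 2), or 0.305 of the Het level. On the scale of log2(scaled RPKM + 1) the fold change was -1.51 (SE 0.048, limma adjusted p 3.3e-06). It was the 28th lowest log2 fold change of the 10690 genes tested. In the authors' deposited table the log2 fold change of Slc38a4 was -1.82 (SE 0.087).

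Slc38a2 changed little by comparison. It held 18.71 and 19.0 RPKM in Het and 17.23 and 17.38 RPKM in Nf1-KO, so the groups were close but did not overlap. The log2 fold change was -0.21 (SE 0.030, limma adjusted p 0.0018), and -0.12 with values not scaled (adjusted p 0.017). The ratio of Slc38a2 to Slc38a4 in RPKM was 2.0 and 1.94 in Het and 5.74 and 6.12 in Nf1-KO. Together the 2 genes summed to 28.1 and 28.8 RPKM in Het and to 20.2 RPKM in each Nf1-KO library.

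The system N gene moved the other way. Slc38a3 (chromosome 9, 107650634 to 107669530, minus strand) encodes SNAT3, which carries glutamine with sodium in exchange for a proton and can run in either direction. It held 16.5 and 16.44 RPKM in Het and 26.1 and 27.01 RPKM in Nf1-KO, with both Nf1-KO libraries well above both Het libraries. The log2 fold change was 0.57 (SE 0.031, limma adjusted p 3.0e-05). Slc38a2 was the most abundant of the 10 genes in Het and Slc38a3 in Nf1-KO: the ratio of Slc38a3 to Slc38a2 in RPKM was 0.882 and 0.865 in Het and 1.51 and 1.55 in Nf1-KO. The sum of all 3 Slc38 genes had a direction that depended on the scaling between libraries. It was 44.6 and 45.2 RPKM in Het and 46.3 and 47.2 RPKM in Nf1-KO as deposited, and 46.0 and 46.8 against 44.9 and 45.7 RPKM when scaled.

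Slc1a5 (chromosome 7, 16781340 to 16798274), the gene of the exchanger ASCT2, was higher in Nf1-KO by a smaller amount. It held 2.23 and 2.19 RPKM in Het and 2.91 and 3.25 RPKM in Nf1-KO, and its Nf1-KO libraries were farther apart than those of the other transporters, with a coefficient of variation of 7.81%. The log2 fold change was 0.28 (SE 0.059, limma adjusted p 0.0097). In the authors' deposited table its log2 fold change was 0.37 and its adjusted p 0.051, on the other side of the threshold.

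The cationic carriers, Slc7a1 and Slc7a2, differed from each other. Slc7a2 (chromosome 8, 40862396 to 40922308) encodes CAT2 and held 8.16 and 8.31 RPKM in Het and 14.19 and 13.86 RPKM in Nf1-KO. It had the largest log2 fold change among the transporters that rose, 0.62 (SE 0.035, limma adjusted p 3.9e-05). An exon of the antisense gene Gm26584 overlaps one of Slc7a2, and the sources used here do not say if strand was counted, so reads of both cannot be told apart. Slc7a1 (chromosome 5, 148327410 to 148399904) encodes CAT1, the cationic carrier of most tissues, and held 0.53 and 0.57 RPKM in Het and 0.48 RPKM in each Nf1-KO library. It passed the limit of 0.5 RPKM through the Het libraries alone. Its log2 fold change of -0.10 was not called (95% interval -0.24 to 0.04, limma adjusted p 0.193). With a pseudocount of 0.1 in place of 1 it was -0.24, again not called. In RPKM, Slc7a2 was 15.4 and 14.6 times Slc7a1 in the Het libraries and 29.6 and 28.9 times in the Nf1-KO libraries, so nearly all of the summed cationic carrier transcript was Slc7a2 in every library.

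Among the system L genes, the heavy chain and its main light chain were both higher in Nf1-KO. Slc3a2 (chromosome 19, 8706882 to 8723369), the heavy chain CD98, held 6.63 and 6.39 RPKM in Het and 8.53 and 8.22 RPKM in Nf1-KO. Its log2 fold change was 0.24 (SE 0.042, limma adjusted p 0.0044), the smallest among the 6 genes that rose. Slc7a8 (chromosome 14, 54722209 to 54781946), the light chain LAT2, held 1.72 and 1.76 RPKM in Het and 2.78 RPKM in each Nf1-KO library, a log2 fold change of 0.40 (SE 0.051, limma adjusted p 0.0011). Slc7a5 (chromosome 8, 121881150 to 121907694), the light chain LAT1 known from growing and activated cells, was the lowest of the 10 genes, at 0.35 and 0.29 RPKM in Het and 0.45 and 0.46 RPKM in Nf1-KO. It stayed under the limit of 0.5 RPKM and was not tested. With no limit, its log2 fold change of 0.11 was not called (limma adjusted p 0.114), and the mean count behind it in the authors' deposited table was 64.4, the lowest of the set.

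The heavy chain was compared with all the light chains it can bind. The 6 light chains (Slc7a5, Slc7a6, Slc7a7, Slc7a8, Slc7a10 and Slc7a11) summed to 3.77 and 3.91 RPKM in Het and to 5.16 and 4.94 RPKM in Nf1-KO. The ratio of Slc3a2 to this sum was 1.76 and 1.63 in Het. It was 1.65 and 1.66 in Nf1-KO, values that lay within the Het range. Slc7a8 was the most abundant light chain in each library, 4.91 to 6.18 times the level of Slc7a5, and Slc7a6 came next at 1.20 to 1.47 RPKM.

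Slc43a1 (chromosome 2, 84838850 to 84863594, plus strand) encodes LAT3, a system L carrier that works without the heavy chain and lets branched-chain amino acids pass down their gradient. It held 3.01 and 3.17 RPKM in Het and 4.68 and 4.7 RPKM in Nf1-KO, with nearly equal replicates in Nf1-KO. Its log2 fold change was 0.40 (SE 0.048, limma adjusted p 8.3e-04). Its promoter is shown because it was the only one of 9 windows, for 6 of the 10 genes, that held any of the 3 motifs searched on both strands. The motifs were the C/EBP-ATF response element TGATGNAA, the E-box CACGTG and the full palindrome of the glucocorticoid response element, and these are held by 3.97%, 7.15% and 0.00913% of all 32851 windows. The E-box is in capitals and begins at position -64, counting the start site as 0, and it overlaps no other motif:
Slc43a1, chr2:84840073-84840372, plus strand: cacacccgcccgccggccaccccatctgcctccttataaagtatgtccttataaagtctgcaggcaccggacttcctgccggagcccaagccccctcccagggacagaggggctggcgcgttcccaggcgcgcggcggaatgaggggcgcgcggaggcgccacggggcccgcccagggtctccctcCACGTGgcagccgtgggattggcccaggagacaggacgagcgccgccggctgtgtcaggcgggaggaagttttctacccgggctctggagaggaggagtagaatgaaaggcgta

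**Figure D2:**
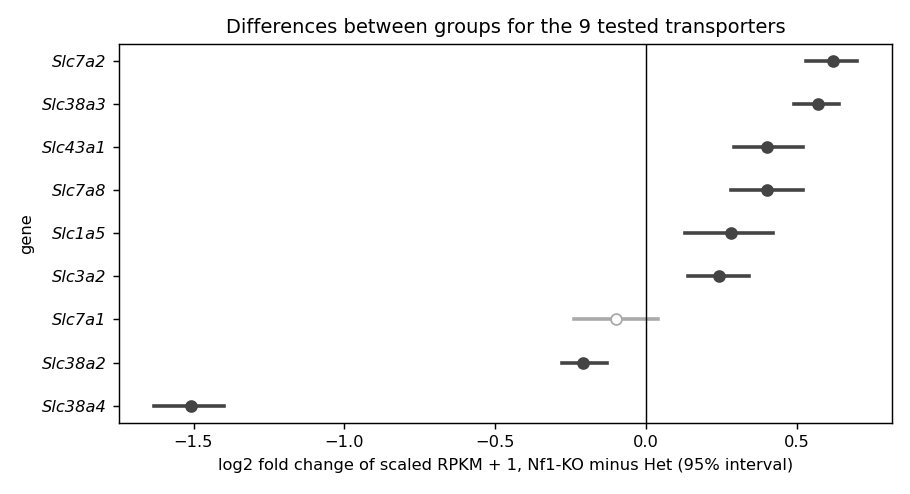
Log2 fold change of scaled RPKM + 1 (Nf1-KO minus Het) with its 95% interval from limma for the 9 tested transporters; filled points passed an adjusted p of 0.05 and the open point did not. The interval of Slc38a4, -1.63 to -1.40, lies apart from those of the other 8 genes, and that of Slc7a1 includes 0.

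The summed level of the 10 genes was 67.2 and 67.9 RPKM in Het and 80.3 and 81.0 RPKM in Nf1-KO as deposited, with no overlap between the groups. When scaled, the difference was smaller, at 69.4 and 70.2 RPKM in Het and 77.8 and 78.3 RPKM in Nf1-KO. The make-up of this sum shifted. Slc38a3 took 24.5% and 24.2% of it in Het and 32.5% and 33.4% in Nf1-KO, while Slc38a4 went from 13.9% and 14.4% to 3.73% and 3.51%. Slc7a2 took 12.1% and 12.2% in Het and 17.7% and 17.1% in Nf1-KO. The share of Slc38a2 was 27.8% and 28.0% in Het and 21.4% and 21.5% in Nf1-KO. In the order of levels, no gene's Het libraries overlapped those of the next gene. In Nf1-KO the libraries of Slc1a5 and Slc38a4 overlapped, and the lower library of Slc38a4 (2.84 RPKM) lay just above those of Slc7a8 (2.78 RPKM).

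**Figure D3:**
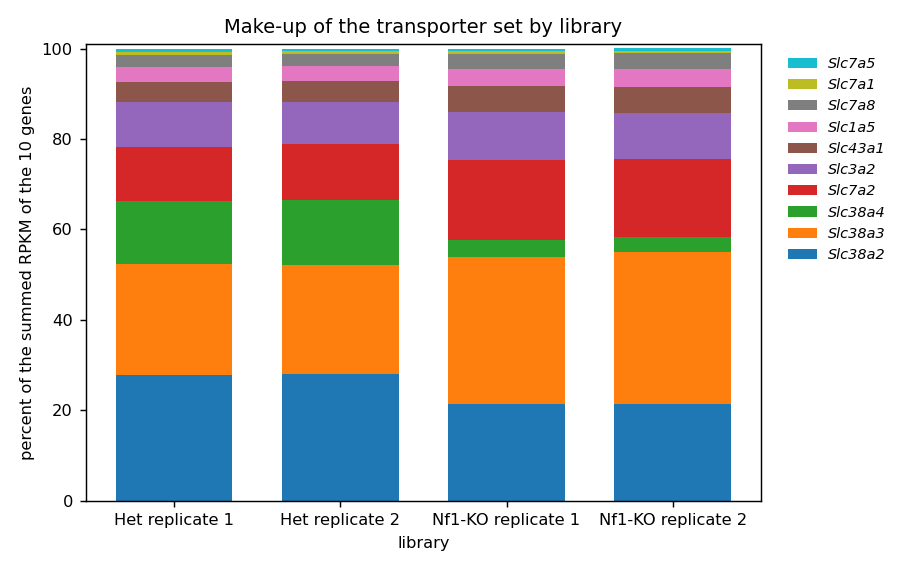
Share of each transporter in the summed RPKM of the 10 genes, in percent, with 1 stacked bar for each library. The replicates of a group look alike, Slc38a4 narrows from 13.9% and 14.4% to 3.73% and 3.51%, and Slc38a3 and Slc7a2 widen.

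In the authors' deposited table all 10 genes had a fold change of the same sign as here. That table called 31.6% of its 13985 genes, with 15.0% higher and 16.6% lower, and 5 of the 10 transporters higher and 2 lower. All 7 were also called here, and Slc1a5 was called here alone. The mean normalized counts behind the 10 genes ranged from 64.4 for Slc7a5 to 4111 for Slc7a2 in the authors' deposited table, so the values of Slc7a5 and Slc7a1 (177) are the least precise. Over its alternatives the limma adjusted p of Slc1a5 ran from 0.0043 to 0.047 and that of Slc3a2 from 0.0013 to 0.025.

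Markers of several other cell types are given beside the transporters, and most tested markers of immune cells, Schwann cells, fibroblasts and adipocytes were higher in Nf1-KO. For comparison with the counts below, 24.9% of all genes tested were called higher and 25.4% lower. Immune cell markers summed to 25.4 and 25.2 RPKM in Het and 60.8 and 58.6 RPKM in Nf1-KO (5 of 5 tested, of 9 listed, rose; Adgre1 is listed at 0 in all libraries). Fibroblast markers summed to 103 and 100 RPKM in Het and 153 RPKM in each Nf1-KO library, with 6 of 8 higher. Schwann cell markers summed to 15.8 and 16.3 RPKM in Het and 36.2 and 34.8 RPKM in Nf1-KO, with 6 of 6 tested, of 7 listed, higher. Adipocyte markers summed to 8.29 and 9.47 RPKM in Het and 20 and 20.6 RPKM in Nf1-KO, with 2 of 3 tested, of 6 listed, higher. Endothelial markers summed to 109 RPKM in each Het library and 121 and 120 RPKM in Nf1-KO, with 4 of 8 higher and 2 lower. Satellite cell markers summed to 8.02 and 7.85 RPKM in Het and 9.34 and 9.36 RPKM in Nf1-KO, with 2 of 4 tested, of 6 listed, higher. Blood markers stayed between 1.37 and 1.77 RPKM in sum, with 5 of 8 listed at 0 in all libraries. Of the 8 fibre markers, 7 fell and 1 rose. The part of these cells in the transporter differences was not tested.

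A list of 28 other amino acid carriers of the plasma membrane was examined. Of these, 8 were listed at 0 in all libraries and 6 were tested, with 2 higher and 3 lower and a median log2 fold change of -0.15. The shares over all genes tested were 24.9% higher and 25.4% lower. Slc43a2, the gene of LAT4 and the closest relative of Slc43a1, held 2.75 and 2.76 RPKM in Het and 5.06 and 5.3 RPKM in Nf1-KO, a log2 fold change of 0.64 (limma adjusted p 1.1e-04). Slc16a10, which lets aromatic amino acids pass, fell by 0.60 on the log2 scale, and Slc6a9, the glycine carrier GlyT1, fell by 0.61. Slc38a1, the system A gene next to Slc38a2 on the chromosome, held only 0.03 to 0.09 RPKM. Of 10 intracellular carriers, mostly of the lysosome, 9 were tested, with 2 higher, 2 lower and a median of -0.05. In either direction that is no more than the share of all genes tested, so these counts are no result about the intracellular carriers. Slc15a4, which moves histidine and peptides out of lysosomes, fell by 0.33 on the log2 scale, while Slc43a3, known as a carrier of purine bases rather than amino acids, rose by 0.47 and Ctns, the cystine carrier, by 0.16; Ctns lost its call when any 1 library was left out (limma adjusted p 0.089 to 0.204).

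**Figure D4:**
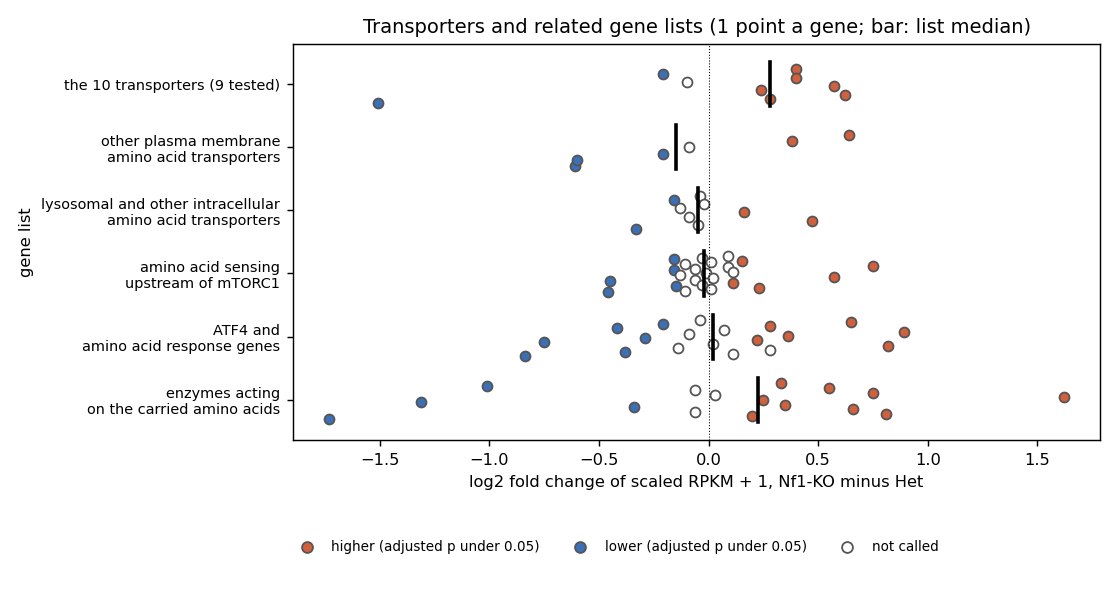
Log2 fold change of scaled RPKM + 1 (Nf1-KO minus Het) of each tested gene in the transporter set and 5 related lists; color marks genes called higher or lower at an adjusted p of 0.05, open points were not called, and black bars are list medians. The medians are 0.28 for the 9 transporters, -0.15, -0.05, -0.02 and 0.02 for the next 4 lists, and 0.22 for the enzymes.

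Of 26 listed genes that report amino acids to mTORC1, 24 were tested, 5 were higher and 5 lower, and the median log2 fold change was -0.02. In either direction that is no more than the share of all genes tested (24.9% higher and 25.4% lower), so the counts are no result about the list. Sesn1, a sestrin that restrains mTORC1, held 5.27 and 5.1 RPKM in Het and 10.01 and 10 RPKM in Nf1-KO, a log2 fold change of 0.75 (limma adjusted p 2.5e-05). Fnip1, the partner of folliculin, rose by 0.57 on the log2 scale and Wdr59, a subunit of the GATOR2 complex, fell by 0.46. With values not scaled, 8 genes of this list were higher and 2 lower. Of ATF4 and genes of the amino acid response, 19 were tested, with 6 higher, 6 lower and a median of 0.02, where 24.9% and 25.4% of all genes tested were higher and lower. Ddit4, an inhibitor of mTORC1 signalling, rose by 0.89 and Cth, which makes cysteine, by 0.82, while Vldlr, a lipoprotein receptor, fell by 0.84.

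The enzymes that act on the carried amino acids included the largest differences among the 5 lists. Of 21 listed, 16 were tested, with 9 higher and 4 lower and a median log2 fold change of 0.22. Over all genes tested, 24.9% were higher and 25.4% lower, so the count of lower enzymes is near that share. Glul, the gene of glutamine synthetase, held 44.78 and 45.25 RPKM in Het and 151.37 and 149.0 RPKM in Nf1-KO, a log2 fold change of 1.62 (limma adjusted p 3.2e-07). So the glutamine carrier Slc38a3 and the enzyme that makes glutamine were both higher in Nf1-KO. Among enzymes that use arginine or ornithine, the cargo of Slc7a2, the large differences were falls, and the call of the gene that rose depended on the setting. Odc1, which turns ornithine into putrescine, held 46.77 and 46.94 RPKM in Het and 19.54 and 19.52 RPKM in Nf1-KO, a log2 fold change of -1.31 (limma adjusted p 6.1e-07). Nos1, the neuronal nitric oxide synthase, chosen after its values were seen, fell by 1.01. Gatm, which uses arginine in the first step of creatine synthesis, had a log2 fold change of 0.20 (limma adjusted p 0.048), also chosen after its values were seen. That call was lost without either Het library or Nf1-KO replicate 2 (adjusted p 0.094, 0.147 and 0.237). It was lost too with no filter (0.129), a pseudocount of 0.1 (0.051), quantile normalization (0.069) and the replicate block (0.066). In the authors' deposited DESeq2 comparison the adjusted p of Gatm was 0.297. Nos3, the endothelial nitric oxide synthase, was not called (-0.06, limma adjusted p 0.414), and the arginases Arg1 and Arg2 were not tested. Gamt, which completes creatine synthesis from an arginine-derived precursor, fell by 1.73.

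The genes whose 4 scaled log2 values, each centred on the gene's mean, lay nearest to those of Slc38a3 and Slc38a4 were sought among 4821 other genes of at least 5 RPKM. Slc38a3 was taken as the most abundant of the 10 genes over all libraries and Slc38a4 as the one with the largest difference. Nearest to Slc38a3 were Ntn4, Aqp4 and Atp5l, at Euclidean distances of 0.020, 0.022 and 0.023. Aqp4, the water channel of fast fibres, held 9.35 and 9.36 RPKM in Het and 15.13 and 15.33 RPKM in Nf1-KO. Nearest to Slc38a4 were Slc16a3, Cib2 and Mylk4, at distances of 0.059, 0.073 and 0.078. Slc16a3, the lactate exporter of glycolytic fibres, held 84.51 and 86.67 RPKM in Het and 32.75 and 32.31 RPKM in Nf1-KO. With 4 libraries in 2 groups, such a distance mostly compares the size of the difference between the groups.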

How the data were processed

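The 4 libraries (2 Het, 2 Nf1-KO) were grouped by their titles. The authors deposited 34682 rows per library, each an RPKM value with 2 decimals; the unit was read from the values, since headers and labels do not name it. STAR 2.4.2a, DESeq2 and build mm9 are named in the submitters' processing notes; the counter and strand are not given in the sources used here. The authors' deposited comparison table has, per the file headers, DESeq2's columns: a mean signal of normalized counts, a log2 fold change with its standard error, a test score and raw and adjusted p-values. Positions are from GENCODE M21 (GRCm38) and promoters from RefSeq (GRCm38.p6), neither in the build of the submitters' notes; no coordinates come from the files.

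Rows with a number for a name (33) were dropped and, among 1781 rows marked as copies, the row of highest mean was kept. Values were scaled by a trimmed mean of log ratios (cutting 30% by ratio and 5% by abundance from either end; factors 0.969, 0.967, 1.03 and 1.03), then log2(RPKM + 1) was fitted with limma 3.58.1 (R 4.3.3), with a variance trend and no covariate, for genes of at least 0.5 RPKM in at least 2 libraries. P-values are two-sided and adjusted by Benjamini-Hochberg over all genes tested. Fold changes are on the log2(value + pseudocount) scale and so understate changes in low genes; means, SD, sums and ratios are of RPKM as deposited unless called scaled. For 1 gene alone, exact permutation of 2 against 2 libraries can reach no p below 0.333. The fit was tested on simulated data. Depth was estimated from the steps of low values in short genes, so it is approximate and no counting intervals are given; the precision behind a gene is read from its mean count in the authors' deposited table. Values of 0 are given only as listed, since genes that every cell uses are among them.

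The 10 genes and the lists were chosen with earlier results of these data known. Named were all 10 genes, from each list the 3 called genes of largest absolute log2 fold change, and genes said to be chosen after their values were seen; Slc38a1, Nos3, Arg1, Arg2, Slc6a6, Rragd and the branched-chain enzymes were also picked in this way. Alternatives covered the pseudocount, the filter, scaling, the variance trend, the replicate number as a block, the sum of copies and leaving out each library. A planned comparison of protein sequences was not made.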

Additional observations from a re-analysis of the deposited data

How the results depend on the processing

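Under 14 alternative settings, 134 of 137 values of the 10 transporters held both their sign and their side of the threshold (for Slc7a5, which has no test, they stayed within its replicate SD), none turned its direction, and 6 higher and 2 lower genes were called in each setting. Slc7a5 moved from 0.11 to 0.33 with a pseudocount of 0.1 and to 0.18 with 0.5, and ran from 0.08 to 0.15 when 1 library was left out. Slc7a1 could not be tested under the filter of 1 RPKM in every library or without either Het library, which leaves it below the main filter.

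Counts in the related lists moved more. Other plasma membrane carriers had 4 higher genes with no filter and 1 lower with the filter of 1 RPKM in every library, and 2 and 2 without any 1 library. Intracellular carriers had 1 higher gene in place of 2 with no filter, with quantile normalization and with the replicate block, and 1 lower in place of 2 with a pseudocount of 0.1 or 0.5, with no filter, with values not scaled and with the replicate block; without any 1 library it was 1 and 1. The mTORC1 list had 3 higher and 3 lower genes with no filter, 8 and 2 with values not scaled, 3 higher with no variance trend, 3 lower with quantile normalization, and 2 to 4 higher and 3 to 4 lower without any 1 library. The cause was not tested.

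Same-numbered libraries had deviations with a correlation of -0.018 across genes. With 2 libraries per group, this single value cannot show whether the libraries were paired. Adding the replicate number as a block gave 5229 called genes in place of 5372, with the same calls for the 9 tested transporters; Nf1 (-0.18, adjusted p 0.056) was not called. With 1 library left out of a group, the lone library is assumed to vary like the other group.

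Amigo2, a neighbour of Slc38a4 with a difference near 0 that was not called, changed sign with values not scaled (0.04) and ran from -0.09 to 0.08 on the log2 scale when 1 library was left out. Nos3, also not called, went from -0.06 to 0.0 with values not scaled.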

Other observations

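The protein-coding neighbours of Slc38a4 within 1 Mb on chromosome 15 (GRCm38), were looked up after the value of Slc38a4 was seen. Of 15 neighbours listed, 10 were tested, with 2 lower, 1 higher and 7 not called. That is below the 50.3% called over all genes tested (24.9% higher and 25.4% lower), so the counts are no result about the region. The lower genes were Slc38a2 (log2 fold change -0.21) and Slc48a1, a heme carrier (-0.21, a call lost without Het replicate 1, where the limma adjusted p was 0.054, with no filter and with values not scaled), and the higher gene was Hdac7, a histone deacetylase (0.34). The nearest tested gene on the other side, Amigo2, held a mean of 1.00 RPKM in Het and 1.06 RPKM in Nf1-KO, with a log2 fold change of -0.0046 (limma adjusted p 0.968).

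Among genes outside the rule for naming, chosen after their values were seen, Slc6a6, the taurine carrier and an abundant one in this muscle, held 13.61 and 13.73 RPKM in Het and 19.31 and 19.37 RPKM in Nf1-KO, a log2 fold change of 0.38 (limma adjusted p 1.4e-04). Rragd, a Rag GTPase of the mTORC1 pathway, held 30.82 and 31.57 RPKM in Het and 24.25 and 24.01 RPKM in Nf1-KO, a log2 fold change of -0.45 (limma adjusted p 5.5e-05). The enzymes that begin the breakdown of branched-chain amino acids, which Slc7a8 and Slc43a1 carry, were also higher: Bcat2 rose by 0.66, Bckdhb by 0.75 and Bckdha by 0.33 on the log2 scale, while Bckdk, the kinase that inhibits the complex, held a log2 fold change of 0.03 (limma adjusted p 0.348; 0.12, called higher, with values not scaled).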
